A study of Mus musculus with 11 samples.

Results

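The genes described here are those of the mouse mitochondrial genome, taken as all genes whose symbol starts with mt-. There are 37 of them among the 52282 genes in the tables: 13 mRNA genes, 2 ribosomal RNA (rRNA) genes and 22 transfer RNA (tRNA) genes, all on chromosome M. Each was followed in 11 RNA-seq libraries of inguinal white adipose tissue, the subcutaneous fat pad of the groin, from C57BL6/J mice aged 16 weeks. All mice carried floxed Raptor alleles (gene Rptor, a subunit of the growth-signalling complex mTORC1). KO mice also carried a Cre recombinase under the adiponectin promoter, which is active in mature adipocytes and not in the other cells of the pad, and WT mice were their floxed littermates. From the age of 8 weeks all mice ate a high-fat diet for 8 weeks, alone or with rosiglitazone, an agonist of the adipocyte transcription factor PPARγ, at 30 mg per kg per day. The groups were WT on diet (3 libraries), WT with rosiglitazone (3), KO on diet (2) and KO with rosiglitazone (3). In all 6 WT libraries the title and the treatment label name opposite treatments. The treatment label was followed, so each direction that involves a WT group rests on it.

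Mitochondrial DNA is a circle read from both strands. Each strand gives one long transcript that is cut at its tRNA genes into separate RNAs, so most neighbours start life on the same molecule. The mRNA genes encode core subunits of complex I (the Nd genes), complex III (mt-Cytb), complex IV (the Co genes) and the ATP synthase (the Atp genes), all made on ribosomes whose RNAs are mt-Rnr1 and mt-Rnr2. The remaining subunits are encoded in the nucleus. White adipocytes hold few mitochondria next to brown adipocytes, and PPARγ agonists are known to raise mitochondrial content in white fat.

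Depth was 13035346 to 40925952 estimated reads per library. Rptor stood at 82.0 ± 9.21 CPM (reads scaled to a common library size, SD, n = 3) in WT on diet, 118 ± 7.83 (n = 3) in WT with rosiglitazone, 63.1 ± 9.25 (n = 2) in KO on diet and 87.5 ± 4.73 (n = 3) in KO with rosiglitazone, lower in KO than in WT under either treatment but not past the threshold (edgeR quasi-likelihood test, adjusted p = 0.467 on diet and 0.0749 with rosiglitazone). Markers of mature adipocytes were present in every library, 10 of 10 with reads throughout, and summed to 9936 to 25134 CPM in WT on diet, 24387 to 27119 in WT with rosiglitazone, 2198 to 5961 in KO on diet and 3834 to 4187 in KO with rosiglitazone. Some libraries stood apart. In 3 of them skeletal muscle markers took over 0.5% of reads (WT on diet replicate 2, WT with rosiglitazone replicate 3 and KO with rosiglitazone replicate 2), and KO with rosiglitazone replicate 1 had 28.9% of reads on ribosomal RNA and 7SL genes against 6.62% to 16.8% elsewhere. The 2 libraries of KO on diet differed from each other in B cell markers (25.4 and 930 CPM), T cell markers (19.2 and 416 CPM), brown adipocyte markers (379 and 68.9 CPM) and ribosomal RNA and 7SL reads (6.67% and 16.8%). WT on diet replicate 1 differed from replicates 2 and 3 of its group. Its mature adipocyte markers summed to 25134 CPM against 11039 and 9936. B cell markers summed to 30.4 CPM against 829 and 745, and T cell markers to 17.7 against 251 and 195. In bulk tissue, fewer cells of a type and less RNA per cell cannot be told apart. The labels do not say that libraries came from separate animals, so p-values measure the spread between these libraries, which may be technical.

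Several of the mRNA genes have near-identical copies in the nuclear genome, and these copies take part of their reads. The 7 copies compared lie side by side on the minus strand of chromosome 1 (GRCm38), between positions 24611535 and 24616197, in the same order as their originals. No base differed between mt-Atp6 and Gm10925, mt-Co3 and Gm28437, mt-Co2 and Gm28661, or mt-Nd4l and Gm10222 over the length of the copy, nor between Gm28439 and the first 876 bases of mt-Nd4. Gm28438 differs from mt-Nd3 by T3C (positions counted from 1 at the 5′ end of the mitochondrial gene, whose base is written first). Gm29216 matches bases 1054 to 1545 of mt-Co1 except for T1056A, C1057T, A1059G, A1060G, C1062A and A1066T. The start of that stretch is shown with the differing bases in capitals, followed by the end of mt-Co2 and of its copy, where the capitals mark the stop codon that the annotated copy leaves out. These sequences are from the GENCODE M21 transcripts and show how little a short read has to tell the pairs apart.
mt-Co1: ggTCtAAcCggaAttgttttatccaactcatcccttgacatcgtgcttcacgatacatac
Gm29216: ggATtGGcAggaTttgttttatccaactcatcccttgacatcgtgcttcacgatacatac
mt-Co2: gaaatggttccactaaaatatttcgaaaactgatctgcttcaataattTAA
Gm28661: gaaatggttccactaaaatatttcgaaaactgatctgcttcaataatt

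Of the 31-base words in each mRNA gene, 100% of those of mt-Co2, 99.9% of mt-Co3, 99.5% of mt-Atp6, 98.9% of mt-Nd4l and 98.1% of mt-Nd3 also occurred in a transcript from outside the mitochondrial genome. The share was 63.9% for mt-Co1 and 62.8% for mt-Nd4, 16.8% for mt-Nd5, 13.5% for mt-Nd2, 7.47% for mt-Atp8, 7.36% for mt-Nd6 and 6.55% for mt-Cytb, and no word of mt-Nd1 or mt-Rnr1 was shared. In 4 of the 5 identical pairs the split of reads between gene and copy varied from library to library. Gm10925 received 56.3% to 78.7% of the reads of its pair with mt-Atp6, Gm28437 21.6% to 67.6% with mt-Co3, Gm28661 12.7% to 63.7% with mt-Co2 and Gm28439 16.1% to 38.3% with mt-Nd4. In the other identical pair, mt-Nd4l and Gm10222, the copy received no reads in 10 of 11 libraries and 1.64% in the other. The split of mt-Co2 also moved with a group: in KO with rosiglitazone the copy held 12.7%, 36.8% and 27.4% of the pair's reads, below all 8 libraries of the other groups (42.6% to 63.7%). Reads that cannot be told apart by sequence were therefore also analysed with each copy added to its original. The second count is given beside the first where a call changed with it, and for some of the other values. Values given once leave the copies out unless stated. The 7 copies do not cover all the sharing: mt-Co1 had 685 words in common with Gm13340 against 449 with Gm29216, and mt-Co2 had 308 with Gm13341 beside 651 with Gm28661, and reads on Gm13340 and Gm13341 were not added.

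**Figure D1:**
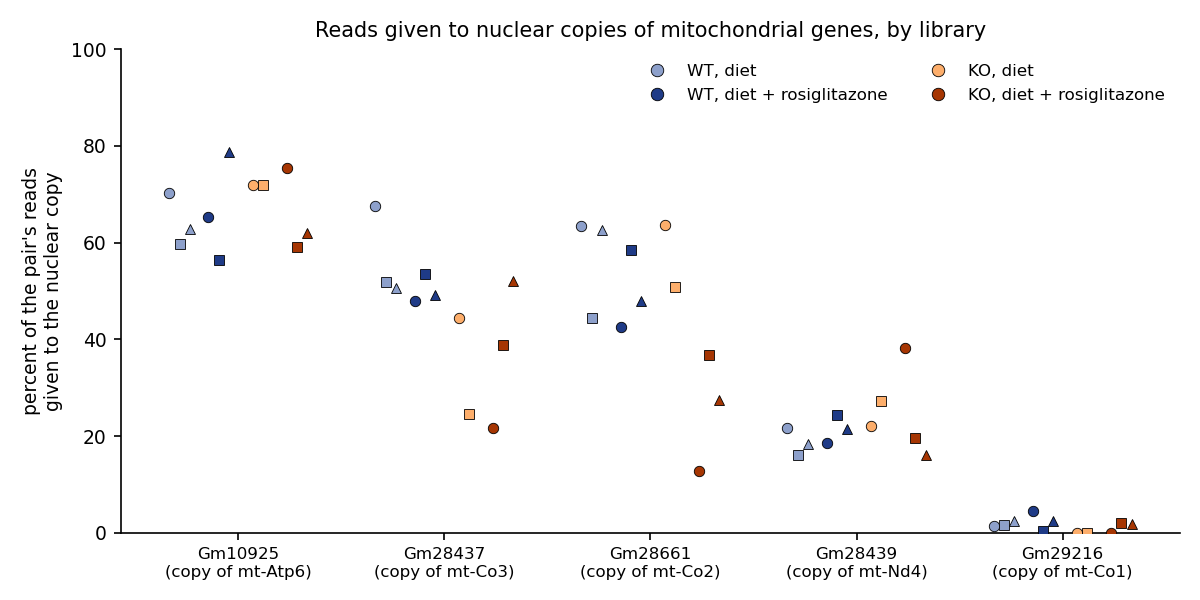
Percent of the reads of each pair (mitochondrial gene plus its nuclear copy) that the authors' quantification gave to the copy, 1 point per library, coloured by group, with circles, squares and triangles for replicates 1, 2 and 3; pairs with a median of at least 1% are shown. The share ranges from 12.7% to 63.7% for Gm28661 and reaches at most 4.57% for Gm29216.

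Of the mRNA genes, 3 end in a lone T after their last full codon, which a poly(A) tail completes to a stop codon, and 3 pairs of mRNA genes overlap by more than 1 base. The last 18 bases are shown with the lone T in capitals.
mt-Co3: tttattgatgaggatctT
mt-Nd4: ttacaggcctgacaataT
mt-Cytb: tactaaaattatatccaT
mt-Atp8 and mt-Atp6 share 43 bases on the same strand (M, 7927 to 7969), shown with the start codon of mt-Atp6 in capitals, and mt-Nd4l and mt-Nd4 share 7 bases (M, 10167 to 10173), shown with the start codon of mt-Nd4 in capitals. Each of these pairs is carried on 1 mRNA, so a read from either end of the shared stretch does not belong to 1 gene alone.
mt-Atp8 and mt-Atp6: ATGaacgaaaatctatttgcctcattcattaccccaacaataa
mt-Nd4l and mt-Nd4: ATGctaa
The third pair, mt-Nd5 and mt-Nd6, lies on opposite strands and shares 14 bases (M, 13552 to 13565). Only mt-Nd6 among the mRNA genes is on the minus strand. The protocols name no strand, so reads of mt-Nd6 and of RNA antisense to it cannot be told apart.

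The share of reads from mitochondrial mRNA genes was higher with rosiglitazone in each WT library, and the KO groups overlapped. The 13 mRNA genes took 1.19%, 1.01% and 0.784% of reads in WT on diet (0.993 ± 0.202, SD, n = 3) and 1.73%, 2.80% and 1.94% in WT with rosiglitazone (2.16 ± 0.567, n = 3). Those groups did not overlap. They took 1.79% and 0.718% in KO on diet (1.26 ± 0.760, n = 2) and 0.442%, 1.26% and 1.02% in KO with rosiglitazone (0.907 ± 0.420, n = 3). Both extremes of the KO libraries were single ones, KO on diet replicate 1 high and KO with rosiglitazone replicate 1 low. Adding the nuclear copies raised the shares to 1.22 ± 0.267, 2.63 ± 0.671, 1.46 ± 0.929 and 1.06 ± 0.514% and left the order of the group means the same.

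The 2 rRNA genes took more reads than all 13 mRNA genes in every library, and their share did not separate the groups. It was 4.02%, 3.01% and 3.00% in WT on diet, 2.81%, 5.83% and 4.33% in WT with rosiglitazone, 5.15% and 3.05% in KO on diet, and 2.45%, 3.63% and 2.83% in KO with rosiglitazone. All 4 ranges overlapped. The ratio of rRNA reads to mRNA reads (nuclear copies added) was 2.69, 2.48 and 3.13 in WT on diet and 1.33, 1.72 and 1.81 in WT with rosiglitazone, with no overlap. It was 2.44 and 3.80 in KO on diet and 5.01, 2.45 and 2.33 in KO with rosiglitazone, so WT with rosiglitazone held the 3 lowest values of the 11. The tRNA genes together gave 414 to 3587 reads per library, at most 0.00877% of a library.

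**Figure D2:**
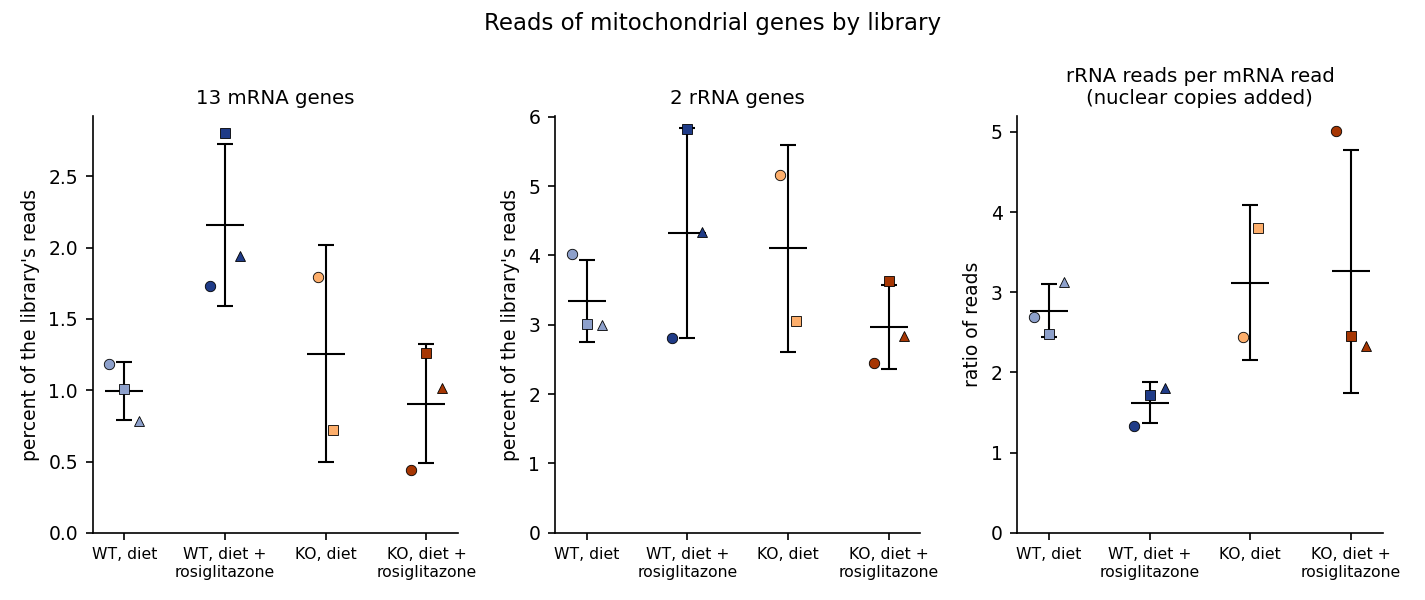
Percent of each library's reads on the 13 mitochondrial mRNA genes and on the 2 rRNA genes, and the ratio of rRNA to mRNA reads with nuclear copies added; points are libraries (circle, square and triangle for replicates 1, 2 and 3), and black bars are group means ± SD. WT with rosiglitazone is above WT on diet for mRNA (1.73% to 2.80% against 0.784% to 1.19%), while the rRNA shares overlap.

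Levels of different genes were compared per length, in TPM (reads per length, scaled to a common sum), with nuclear copies added and as a mean over 11 libraries. mt-Rnr2, the large-subunit rRNA, stood highest at 23480 TPM, followed by mt-Co1 (6214), the catalytic subunit of complex IV, and mt-Co3 (4559), another complex IV core subunit. mt-Rnr1, the small-subunit rRNA, followed at 3302, then mt-Atp6 (2091), the proton-channel subunit of the ATP synthase, mt-Co2 (1341), which takes electrons from cytochrome c, and mt-Atp8 (1080). The lowest were mt-Nd3 (413), mt-Nd2 (289) and mt-Nd6 (248), membrane subunits of complex I. mt-Nd4l, mt-Cytb, mt-Nd1 and mt-Nd4 lay between 638 and 875 TPM and exchanged places. Each of the first 3 was above the next in 6 of 11 libraries, and mt-Co1 exceeded mt-Co3 in 11 of 11. The place of mt-Nd4 rests on its copy Gm28439, which is shorter and has its TPM taken over its own length. Counted apart from the copy, mt-Nd4 averaged 440 TPM, below mt-Nd5 at 505. The value of mt-Atp8 leans on its short effective length, which Salmon set at 83.2 to 96.4 bases. mt-Co1 alone gave 45.6% to 53.3% of all mRNA reads in each library. The TPM of mt-Co3 varied 24.4-fold between the lowest and the highest library and that of mt-Rnr1 5.38-fold.

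In WT fat, all 13 mRNA genes were higher with rosiglitazone, by 2.04- to 3.50-fold, and in all 13 the 3 treated libraries lay above the 3 on diet alone. Only mt-Nd4l and mt-Co2 passed the test (2 of 13, edgeR quasi-likelihood, adjusted p under 0.05), where 1.55% of the 26960 genes tested were called higher. Groups without overlap in this direction made up 13.4% of all genes. The median log2 fold change of the 13 was 1.34, against -0.05 over all genes tested, and 12 of 13 had an unadjusted p under 0.05, against 9.93% of all genes in that direction. Marker levels moved between these groups too. The 7 brown adipocyte markers, 2 of them at 0 in some library, summed to 216 to 480 CPM in the treated libraries against 10.1 to 59.3 CPM in the untreated ones. The 8 macrophage markers summed to 522 to 659 against 837 to 1125 CPM. Neither set of values overlapped. Their part in the result was not tested.

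mt-Nd4l, a small membrane subunit of complex I, measured 124, 85.6 and 69.9 CPM in WT on diet and 255, 331 and 243 CPM in WT with rosiglitazone. Every treated library stood far above every untreated one, a log2 fold change of 1.57 ± 0.30 (SE, adjusted p = 0.0329, edgeR). Adding its nuclear copy left the call in place (1.58 ± 0.29, adjusted p = 0.0317). mt-Co2 measured 256, 232 and 123 CPM on diet and 648, 766 and 726 CPM with rosiglitazone, a log2 fold change of 1.81 ± 0.34 (adjusted p = 0.0330). With the reads of its copy Gm28661 added, the values were 701, 418 and 329 against 1129, 1842 and 1395 CPM, the log2 fold change 1.59 ± 0.45, and the adjusted p 0.107. So mt-Co2 was called only where its copy was counted apart.

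The other complex IV genes were mt-Co1, at 8818, 5163 and 3862 CPM on diet against 10753, 21809 and 13067 CPM with rosiglitazone (log2 fold change 1.35 ± 0.58, adjusted p = 0.264), and mt-Co3, at 943, 923 and 713 against 2128, 3636 and 2559 CPM (1.69 ± 0.48, adjusted p = 0.110; 1.43 ± 0.61 and 0.256 with its copy added). Treated and untreated libraries did not overlap for either gene. With its copy added, mt-Co3 measured 2912, 1916 and 1446 CPM on diet against 4087, 7830 and 5030 CPM with rosiglitazone, a narrower gap. The log2 fold change of mt-Cytb, the one mitochondrial subunit of complex III, was 1.52 ± 0.52 (adjusted p = 0.173), from 860, 585 and 411 CPM to 1369, 2357 and 1609 CPM. For the ATP synthase it was 1.34 ± 0.71 (adjusted p = 0.369) for mt-Atp6 and 1.21 ± 0.40 (adjusted p = 0.160) for mt-Atp8. mt-Atp6 was the one mRNA gene whose unadjusted p exceeded 0.05, with 555, 1300.5 and 417 CPM in WT with rosiglitazone, where replicate 2 stood far above the others. With its copy added, mt-Atp6 measured 1603, 2979 and 1962 CPM in that group.

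Among the other complex I genes, the log2 fold change ran from 1.03 ± 0.27 for mt-Nd6 (adjusted p = 0.0882) to 1.62 ± 0.41 for mt-Nd3 (adjusted p = 0.0782). mt-Nd1, mt-Nd2, mt-Nd4 and mt-Nd5 lay between, at 1.29 ± 0.47, 1.29 ± 0.51, 1.30 ± 0.44 and 1.23 ± 0.39. mt-Nd6 measured 88.1, 54.5 and 49.4 CPM on diet and 117, 163 and 112 CPM with rosiglitazone. It was thus higher in each treated library. The gene lies on the opposite strand to the other 12, but its reads cannot be told apart from those of RNA antisense to it.

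The 2 calls in WT fat are not stable over libraries. They numbered 0 when WT on diet replicate 2 or 3 or any library of either rosiglitazone group was left out, 5 without WT on diet replicate 1, and 3 without either library of KO on diet. The log2 fold change of mt-Nd4l ranged from 1.40 to 1.83 over these 11 fits and that of mt-Co2 from 1.54 to 2.00. Calls over all genes moved as well. They numbered 578 in the full fit and 2779 without WT on diet replicate 1. Without any other WT library they numbered 18 to 67, and without a library of KO with rosiglitazone 182 to 225. The same 13 genes gave 12 calls with limma-voom and quality weights, 9 with DESeq2 and 0 with limma-trend on TPM, and none of the calls was lower. Over all genes these tools called 7325, 1981 and 48 in either direction.

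Both rRNA genes had positive, smaller differences in WT fat. mt-Rnr1 measured 3514, 1929 and 1875 CPM on diet and 2349, 5671 and 4365 CPM with rosiglitazone (log2 fold change 0.76 ± 0.40, adjusted p = 0.369), and mt-Rnr2 measured 43800, 24839 and 23236 against 28946, 68456 and 46239 CPM (0.64 ± 0.52, adjusted p = 0.566). The groups overlapped for both. WT with rosiglitazone replicate 1 was the low library among the treated, below WT on diet replicate 1. With limma-voom mt-Rnr1 alone passed, and with DESeq2 neither did.

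**Figure D3:**
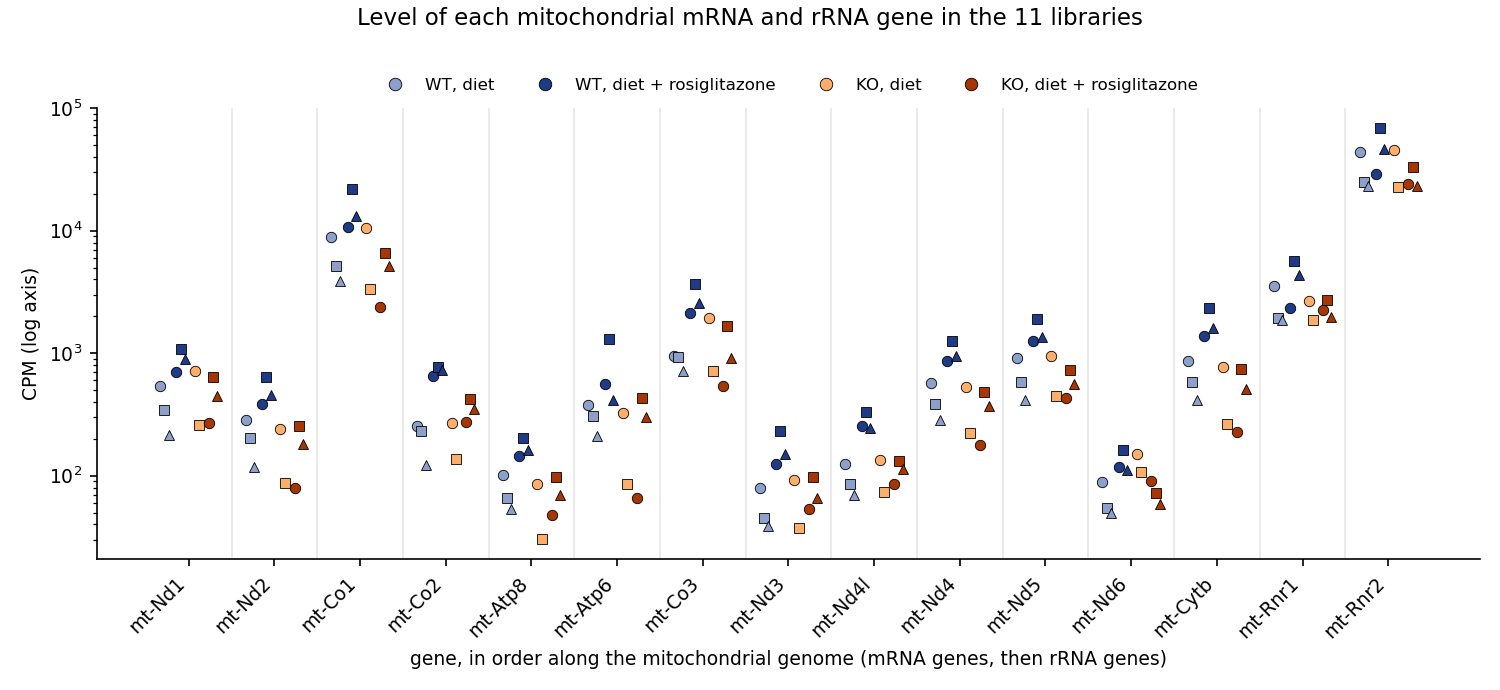
CPM on a log axis of the 13 mRNA genes and 2 rRNA genes in each of the 11 libraries, without the nuclear copies, coloured by group, with circles, squares and triangles for replicates 1, 2 and 3. In each mRNA gene the 3 dark blue points of WT with rosiglitazone lie above the 3 light blue points of WT on diet, and for the 2 rRNA genes they overlap.

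With rosiglitazone, the mRNA genes were lower in KO than in WT fat: all 13 differences were negative, to 0.278-fold for mt-Cytb and 0.567-fold for mt-Nd6, and 4 passed the test. These were mt-Cytb and the complex I genes mt-Nd4l, mt-Nd4 and mt-Nd5, against 9.5% of all genes called lower. The median log2 difference was -1.39, against 0.05 over all genes, and 11 of 13 had an unadjusted p under 0.05 (17.7% of all genes in that direction). In 12 of 13 genes the groups did not overlap, which 24.7% of all genes did in this direction. The exception was mt-Atp6, and with the nuclear copies added it did not overlap either.

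mt-Nd4l measured 85.5, 131 and 113 CPM in KO with rosiglitazone, each below the WT values of 255, 331 and 243 CPM, a log2 difference of -1.33 ± 0.29 (adjusted p = 0.0163, edgeR). It stayed past the threshold in 8 of 11 fits that each left out 1 library. mt-Nd4 measured 178, 485 and 371 CPM in KO against 866, 1249 and 942 CPM in WT (-1.56 ± 0.45, adjusted p = 0.0425). With its copy added, mt-Nd4 measured 289, 604 and 443 against 1063, 1650 and 1199 CPM (-1.55 ± 0.42, edgeR adjusted p = 0.0339). mt-Nd5, the largest of the mRNA genes, measured 431, 733 and 558 against 1267, 1893 and 1358 CPM (-1.39 ± 0.39, adjusted p = 0.0406). mt-Cytb measured 227, 746 and 512 against 1369, 2357 and 1609 CPM (-1.84 ± 0.53, adjusted p = 0.0431). In each of these genes KO with rosiglitazone replicate 1 was the lowest library of the groups compared here. The last 3 genes each kept their call in 4 of 11 fits with 1 library left out.

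The complex IV genes lay near the threshold without passing it. mt-Co1 measured 2382, 6599 and 5129 CPM in KO, all below the WT values, a log2 difference of -1.69 ± 0.59 (adjusted p = 0.0805), and mt-Co3 measured 541, 1652 and 906 CPM (-1.43 ± 0.48, adjusted p = 0.0733). With its copy added, mt-Co3 measured 690, 2701 and 1894 CPM in KO (-1.68 ± 0.61, edgeR adjusted p = 0.0912). mt-Co2, at 272, 425 and 348 CPM, differed by -1.03 ± 0.34 (adjusted p = 0.0652). With the reads of Gm28661 added, mt-Co2 measured 312, 672 and 480 CPM against 1129, 1842 and 1395 CPM, the difference became -1.58 ± 0.45 and it passed the test (adjusted p = 0.0425), for 5 calls among the 13. The ATP synthase genes differed by -1.51 ± 0.71 for mt-Atp6 (adjusted p = 0.180) and -1.25 ± 0.40 for mt-Atp8 (adjusted p = 0.0622). With its copy added, mt-Atp6 differed by -1.62 ± 0.61 (edgeR adjusted p = 0.0991). The remaining complex I genes differed by -0.99 ± 0.47 (mt-Nd1), -1.53 ± 0.51 (mt-Nd2), -1.21 ± 0.41 (mt-Nd3) and -0.82 ± 0.27 (mt-Nd6). mt-Rnr1 and mt-Rnr2 differed by -0.83 ± 0.40 and -0.84 ± 0.52 (adjusted p = 0.186 and 0.294), with overlapping groups.

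These calls too depend on single libraries: 0 mRNA genes were called without WT with rosiglitazone replicate 2 or without KO with rosiglitazone replicate 1 or 3, and 1 was called without WT on diet replicate 2, WT with rosiglitazone replicate 1 or 3, or KO with rosiglitazone replicate 2. There were 8 calls without WT on diet replicate 1 and 10 without either library of KO on diet. The number of all genes called moved too, from 4037 in the full fit. It was 5919 once WT on diet replicate 1 was dropped, 3426 for replicate 2 of that group, and 3899 for replicate 3, where 5 mRNA genes were called. Dropping a library of either rosiglitazone group gave 1498 to 2407. The number also rose where a library of KO on diet was dropped, which leaves that group without replication. Other tools called more mRNA genes, 12 with limma-voom, 11 with DESeq2 and 11 with limma-trend on TPM. The mature adipocyte markers also separated these groups (3834 to 4187 CPM in KO, 24387 to 27119 in WT), as did the 8 macrophage markers, all with reads in every library (2186 to 2714 CPM in KO, 522 to 659 in WT). So did the summed markers of B cells (550.0 to 677 CPM in KO, 21.1 to 313 in WT), T cells (229 to 277 against 13.2 to 100.01) and endothelial cells (369 to 406 against 596 to 813.5), all with reads in every library, and the share of ribosomal RNA and 7SL reads (15.8% to 28.9% in KO, 9.499% to 12.2% in WT). With the adipocyte marker level as a covariate the median log2 difference of the 13 turned to 0.66 with 0 calls. Marker level and genotype cannot be told apart here, and the part of the other markers and of the ribosomal RNA reads was not tested. The skeletal muscle markers, 14 of which had reads in some library, summed to 31.9 to 16526 CPM in KO and 136 to 7404 in WT with rosiglitazone, and without the 3 libraries over 0.5% muscle reads no mRNA gene was called.

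**Figure D4:**
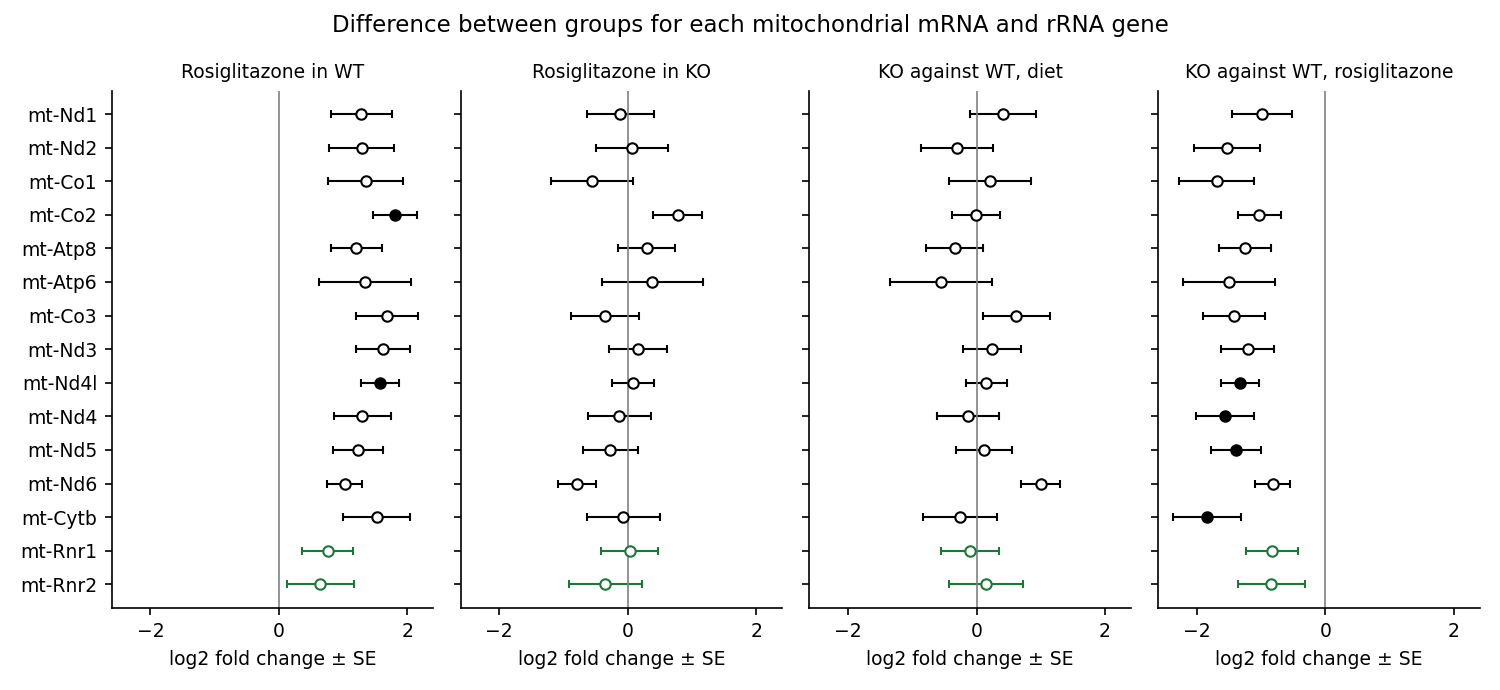
Log2 fold change ± SE (edgeR) of each of the 13 mRNA genes (black) and 2 rRNA genes (green) in 4 comparisons; filled points passed the adjusted p threshold of 0.05. All 13 mRNA genes lie right of 0 for rosiglitazone in WT (median 1.34) and left of 0 for KO against WT with rosiglitazone (median -1.39), and they scatter around 0 in the other two panels.

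In KO fat, rosiglitazone moved no mRNA gene past the threshold (0 of 13), where 0.0111% of all genes were called higher and 0.00371% lower. The median log2 fold change of the 13 was -0.07, with 6 positive and 7 negative, and the extremes were mt-Co2 at 0.78 ± 0.38 (adjusted p = 0.643) and mt-Nd6 at -0.79 ± 0.30 (adjusted p = 0.512). Only mt-Nd6 had an unadjusted p under 0.05 (4.27% of all genes in that direction), and DESeq2, limma-voom and limma-trend called 0 as well. mt-Co1 gave -0.55 ± 0.63, mt-Co3 -0.35 ± 0.52, mt-Cytb -0.07 ± 0.57, mt-Atp6 0.38 ± 0.79 (-0.04 ± 0.66 with its copy added) and mt-Nd4l 0.08 ± 0.32, each with an SE wider than its value or near it. The value of mt-Co2 rests on its copy: with the reads of Gm28661 added it was -0.06 ± 0.49. The 2 libraries of KO on diet lay far apart, for example 10491 and 3314 CPM for mt-Co1. Leaving out 1 library moved the median of the 13 between -0.63 and 0.79.

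The difference between the WT and KO responses was tested as an interaction. All 13 mRNA genes had a smaller response in KO than in WT, with a median of -1.46 (close to 0 over all genes) and 6 unadjusted p under 0.05 in that direction (5.64% of all genes), but none passed the threshold after adjustment, where 0.0185% of all genes did in that direction. The value nearest to it was mt-Nd6 at -1.82 ± 0.41 (adjusted p = 0.148), then mt-Nd4l at -1.48 ± 0.43 (adjusted p = 0.280) and mt-Co3 at -2.04 ± 0.70 (adjusted p = 0.358; -1.76 ± 0.89 and 0.524 with its copy added). DESeq2 called 1 gene, mt-Nd6, and limma-voom and limma-trend called 0. Leaving out WT on diet replicate 1 gave 1 call. With edgeR, the WT and KO responses were thus not shown to differ for any single mRNA gene.

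On diet alone, KO and WT fat did not differ in any mRNA gene past the threshold (0 of 13, against 0.026% of all genes called higher and 0.111% lower; 0 also with DESeq2, limma-voom and limma-trend). The median log2 difference was 0.11, and 1 of 13 had an unadjusted p under 0.05 (4.57% of all genes in that direction). That gene was mt-Nd6, with 149 and 107 CPM in KO and 88.1, 54.5 and 49.4 in WT, so that both KO libraries lay above all 3 WT libraries, as in 10.5% of all genes (1.00 ± 0.30, adjusted p = 0.260). The other 12 overlapped between the groups, from mt-Atp6 at -0.55 ± 0.79 to mt-Co3 at 0.62 ± 0.52. With the copies added these became -0.26 ± 0.67 and 0.08 ± 0.66, and the range of the 12 ran from mt-Atp8 at -0.34 ± 0.45 to mt-Nd1 at 0.41 ± 0.51. mt-Rnr1 and mt-Rnr2 differed by -0.10 ± 0.45 and 0.15 ± 0.58. Leaving out 1 library moved the median of the 13 between -0.57 and 0.52.

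mt-Nd6 kept a pattern of its own beside its overlapping neighbour mt-Nd5. The ratio of mt-Nd6 to mt-Nd5 in TPM was 0.423, 0.414 and 0.518 in WT on diet and 0.406, 0.382 and 0.359 in WT with rosiglitazone. It was 0.703 and 1.06 in KO on diet, above all 6 WT libraries. In KO with rosiglitazone it was 0.896, 0.419 and 0.458, with replicate 1 high and the other two within the WT range. The highest ratios belonged to KO on diet replicate 2 and KO with rosiglitazone replicate 1, the libraries with the lowest share of mitochondrial mRNA (0.718% and 0.442%), and 28.9% of reads in KO with rosiglitazone replicate 1 were on ribosomal RNA and 7SL genes. The part of these in the ratio was not tested.

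The tRNA genes are the shortest members, and few reads were given to them. Of 22, 14 passed the filter on low counts. The 4 most abundant, mt-Tc (cysteine), mt-Ty (tyrosine), mt-Tn (asparagine) and mt-Ta (alanine), lie next to each other on the minus strand (M, 5018 to 5326) beside the origin of light-strand replication. They are shown with mt-Te (glutamate), mt-Tr (arginine) and mt-Ts2 (serine), which were called in a comparison. The capitals mark the anticodon, found by a search for its known triplet in a 7-base loop closed by a stem of at least 4 of 5 pairs, and mt-Ts2 is the short one that lacks an arm.
mt-Tc: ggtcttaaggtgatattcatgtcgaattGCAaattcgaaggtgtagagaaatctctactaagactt
mt-Ty: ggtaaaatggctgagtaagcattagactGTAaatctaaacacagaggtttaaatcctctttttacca
mt-Tn: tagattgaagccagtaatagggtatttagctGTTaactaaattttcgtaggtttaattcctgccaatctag
mt-Ta: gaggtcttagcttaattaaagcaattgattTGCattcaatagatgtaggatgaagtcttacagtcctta
mt-Te: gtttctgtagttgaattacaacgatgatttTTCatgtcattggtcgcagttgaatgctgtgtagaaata
mt-Tr: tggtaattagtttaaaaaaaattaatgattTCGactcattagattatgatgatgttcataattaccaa
mt-Ts2: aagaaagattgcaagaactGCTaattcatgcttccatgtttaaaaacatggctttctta

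In WT fat all 14 tested tRNA genes had positive differences with rosiglitazone (median log2 fold change 1.34), and 3 passed the test, against 1.55% of all genes called higher. Other tools called 10 of the same 14 (limma-voom), 5 of the 10 evaluated (DESeq2) and 0 (limma-trend on TPM). Over all genes they called 7325, 1981 and 48 in either direction. The DESeq2 calls did not include mt-Tr, which edgeR called. mt-Te measured 1.00, 0.59 and 0.31 CPM on diet and 2.24, 2.61 and 3.04 with rosiglitazone (2.03 ± 0.39, adjusted p = 0.0339, edgeR), and mt-Ts2 0.22, 0.39 and 0.37 against 1.60, 1.28 and 1.01 CPM (1.99 ± 0.38, adjusted p = 0.0339). mt-Tr gave 1.85 ± 0.39 (adjusted p = 0.0438). These 3 genes had at most 84 reads in any library, and each call was kept in 3 or 4 of 11 fits with 1 library left out. The 4 abundant ones did not pass, with 1.54 ± 0.38 for mt-Tc (adjusted p = 0.0725), 1.60 ± 0.58 for mt-Ty (0.192), 1.32 ± 0.36 for mt-Tn (0.0950) and 1.09 ± 0.47 for mt-Ta (0.267).

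With rosiglitazone, 13 of 14 tRNA genes were lower in KO than in WT (median -0.64), and 2 passed, a share near the 9.5% of all genes called lower. Other tools called 5 (limma-voom), 5 of the 13 evaluated (DESeq2) and 6 (limma-trend on TPM). Over all genes they called 9182, 5966 and 4079 in either direction. mt-Tn measured 3.62, 7.15 and 4.17 CPM in KO against 9.24, 17.1 and 12.8 in WT (-1.39 ± 0.36, adjusted p = 0.0303, edgeR, kept in 7 of 11 fits with 1 library left out). Its neighbour mt-Ta measured 1.18, 3.24 and 2.36 against 5.65, 9.64 and 5.77 CPM (-1.64 ± 0.49, adjusted p = 0.0490). The call of mt-Ta was kept in 3 of 11 such fits and lost with RLE size factors. mt-Tc (-1.09 ± 0.38) and mt-Ty (-1.60 ± 0.58) did not pass, and mt-Th, the histidine tRNA, was the one with a positive difference (0.38 ± 0.54). No tRNA gene passed with edgeR on diet alone, in KO fat or in the interaction, with 3 (higher, 4.57% of all genes), 2 (higher, 4.09%) and 2 (lower, 5.64%) unadjusted p under 0.05. On diet alone mt-Ts2 was nearest, at 1.67 and 1.60 CPM in KO against 0.22, 0.39 and 0.37 in WT (2.32 ± 0.41, edgeR adjusted p = 0.0807). DESeq2 and limma-trend on TPM called it, beside 736 and 83 of all genes in either direction. DESeq2 also called mt-Ts1 in KO fat, beside 364 of all genes, and mt-Ts2 in the interaction.

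Most subunits of the complexes that hold these proteins are nuclear genes, and 72 gene entries for them were set beside the 13. Of the 72 symbols listed, Atp5pb was absent, so some symbol stands for more than 1 entry. In WT fat 43 of 72 rose with rosiglitazone and 0 fell, against 1.55% and 0.593% of all genes, with a median log2 fold change of 1.45, close to the 1.34 of the mitochondrial genes. Cyc1, cytochrome c1 of complex III, gave 2.23 ± 0.28 (adjusted p = 0.0113), Ndufs7 of complex I 1.42 ± 0.20 (0.0142), Cox5b of complex IV 1.42 ± 0.20 (0.0159) and Uqcrh of complex III 1.46 ± 0.21 (0.0169). In KO fat 0 of 72 passed, with a median of 0.30 and 9 unadjusted p under 0.05, all positive (4.09% of all genes). With rosiglitazone 42 of 72 were lower in KO than in WT, against 9.5% of all genes (median -1.05), led by the complex I subunit Ndufb3 at 0.25-fold (adjusted p = 0.00338), then Ndufs3 at a log2 difference of -1.44 ± 0.25 (0.00631), Cox5b at -1.12 ± 0.20 (0.00701) and Ndufv3 at -1.42 ± 0.26 (0.00764). On diet alone and in the interaction 0 of 72 passed, with 1 and 50 unadjusted p under 0.05, all of these negative (5.92% and 5.64% of all genes). WT with rosiglitazone takes part in 3 of these comparisons, which share its libraries.

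The summed CPM of the 13 mRNA genes and copies was 4.22, 3.79 and 3.72 times that of the 72 nuclear genes in WT on diet and 3.04, 4.08 and 3.55 times in WT with rosiglitazone, so the groups overlapped although both sums were higher with the drug. The ratio was 4.70 and 2.99 in KO on diet and 1.50, 3.52 and 3.63 in KO with rosiglitazone. KO with rosiglitazone replicate 1 was the lowest of the 11.

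**Figure D5:**
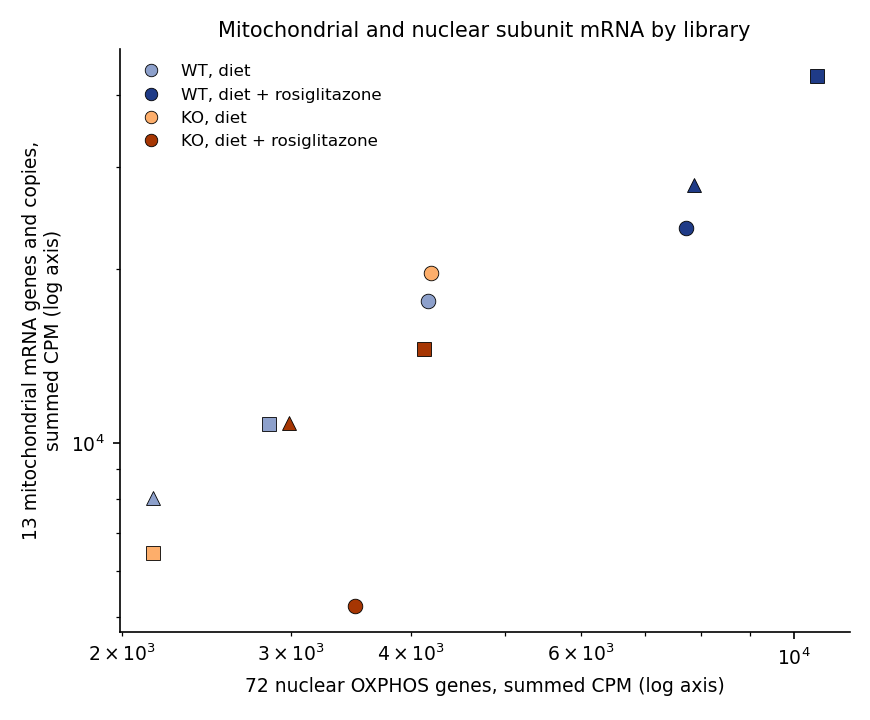
Summed CPM of the 13 mitochondrial mRNA genes and their nuclear copies against summed CPM of 72 nuclear genes for oxidative phosphorylation (OXPHOS) subunits, both on log axes, 1 point per library, coloured by group, with circles, squares and triangles for replicates 1, 2 and 3. The 3 libraries of WT with rosiglitazone are highest in both sums (23515 to 43103 and 7726 to 10553 CPM), and KO with rosiglitazone replicate 1 has the lowest mitochondrial sum (5229 CPM).

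The nuclear genes that copy, transcribe and process mitochondrial DNA moved less. Of 37 such genes measured, 5 rose in WT fat with rosiglitazone, against 1.55% of all genes, and 0 fell (median log2 fold change 0.39). Twnk, the replicative helicase, gave 0.77 ± 0.14 (adjusted p = 0.0308), Lrpprc, which stabilises mitochondrial mRNAs, 0.85 ± 0.17 (0.0375), Fastk, which acts on mt-Nd6 mRNA, 0.96 ± 0.20 (0.0407) and Tbrg4, another member of the Fastk family, 0.70 ± 0.15 (0.0461). With rosiglitazone 10 of 37 were lower in KO than in WT and 0 higher, against 9.5% and 5.47% of all genes (median -0.43). These included Tefm, the transcription elongation factor (-1.33 ± 0.20, adjusted p = 0.00337), Hsd17b10, a subunit of the enzyme that cuts tRNA 5′ ends (-1.98 ± 0.35, 0.00663), Tfb2m, a transcription initiation factor (-1.30 ± 0.27, 0.0127), and Supv3l1, an RNA helicase of mitochondrial RNA decay (-0.69 ± 0.15, 0.0147). In KO fat, on diet alone and in the interaction 0 of 37 passed (edgeR). In KO fat 3 had an unadjusted p under 0.05, of which 2 were higher (4.09% of all genes) and 1 lower (4.27%), a share near that of all genes. On diet alone 3 were lower (5.92% of all genes), and in the interaction 9 were lower (5.64%).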

How the data were processed

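Per the labels' protocols, Trizol was used for RNA and Nextera XT for libraries. The submitters' processing notes name Salmon, edgeR, mm10 and GRCm38, without versions. The deposited tables hold estimated counts and TPM for 132288 transcripts, per the file headers. They were matched to GENCODE M21 (99.7%), summed per gene and rounded. One edgeR 4.0.16 model (R 4.3.3, TMM, filterByExpr, robust quasi-likelihood) covered 11 libraries, 4 groups and 26960 genes, with Benjamini-Hochberg adjustment at 0.05. Salmon divides reads among identical sequences by estimate. No step separates strands. Alternatives used limma 3.58.1 (TPM with a pseudocount of 1) and DESeq2 1.42.0. Replicates differed beyond sampling noise (chi-square per degree of freedom 28.2 to 148). The test was checked on simulated data. Named are all mRNA and rRNA genes, the 4 most abundant and all called tRNA genes, and up to 4 list genes with the smallest p. Members and lists were chosen with earlier results of these data known. Shares on ribosomal RNA and 7SL genes include Gm26917 and Gm42418, added after seeing the data.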

Additional observations from a re-analysis of the deposited data

Results flagged for a closer look

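Reads given to nuclear copies of mitochondrial genes are not counted for the mitochondrial genes unless stated. The 7 copies on chromosome 1 held a median of 16.6% of the reads of mitochondrial mRNA genes and copies together over the 11 libraries. Gm28437, the copy of mt-Co3, had a mean of 1480 CPM, Gm10925, the copy of mt-Atp6, 759.5 CPM, and Gm28661, the copy of mt-Co2, 372 CPM. Of the 6 copies tested as genes of their own, Gm28661 and Gm28439 were lower in KO than in WT with rosiglitazone (log2 differences of -2.41 ± 0.70 and -1.50 ± 0.41, edgeR adjusted p = 0.0450 and 0.0372), against 9.5% of all genes called lower. Gm28437 and Gm10925 were not called (-1.98 ± 0.83 and -1.69 ± 0.58, adjusted p = 0.133 and 0.0756). Neither were Gm29216 and Gm28438 (-2.02 ± 1.20 and -8.08 ± 3.58, adjusted p = 0.282 and 0.181). Gm29216 had 2.07 and 0.28 CPM in the KO on diet libraries, 1.25 CPM in replicate 1 of KO with rosiglitazone, and 80.4 to 515 CPM in the other 8.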

How the results depend on the processing

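Counts of called mRNA genes moved with the tool and, in comparisons with WT with rosiglitazone, with single libraries; causes were not tested. With rosiglitazone in WT (2 calls, median log2 fold change 1.34), there was 1 call with nuclear copies added, with a skeletal muscle covariate and with only the groups compared. There were 0 with the replicate block, without libraries over 0.5% muscle reads and with limma-trend on TPM, 9 with DESeq2 and 12 with limma-voom. Over all genes the calls in these fits, in the same order, were 577, 211, 313, 430, 0, 48, 1981 and 7325, against 578 in the main fit. The adipocyte covariate gave a median of 0.66. In KO fat (0 calls, -0.07) the adipocyte covariate gave 1 call, beside 1000 of all genes. The median was 0.0459 with the replicate block, 0.0355 with limma-voom and -0.94 with limma-trend on TPM, where it was -0.60 over all genes. KO against WT on diet (0 calls, 0.11) gave 5 calls and a median of 1.42 with the adipocyte covariate. That fit called 4334 of all genes, against 37 in the main fit. KO against WT with rosiglitazone (4 calls, -1.39) gave 2 calls with the replicate block, 1 with the muscle covariate and 0 without the muscle libraries. It gave 0 and a median of 0.66 with the adipocyte covariate, and 9 with only the groups compared. There were 12 with limma-voom, 11 with DESeq2 and 11 with limma-trend, whose median was -2.01 (-0.30 over all genes). Over all genes the calls in these fits, in the same order, were 3444, 2492, 208, 2613, 8461, 9182, 5966 and 4079, against 4037 in the main fit. The interaction (0 calls, -1.46) gave 2 calls and a median of -0.79 with the adipocyte covariate, 1 call with DESeq2 and a median of -2.18 with limma-trend; restricting the fit to the groups compared gives no interaction.

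With WT treatments taken from the titles, the medians were -1.34 (rosiglitazone in WT), -1.42 with 2 calls (KO against WT on diet), -0.0445 with 0 calls (KO against WT with rosiglitazone) and 1.36 (interaction). Over all genes, KO against WT then gave 2886 calls on diet and 624 with rosiglitazone, against 37 and 4037 in the main fit. In WT the called genes then turned to -1.81 (mt-Co2), -1.57 (mt-Nd4l), -1.85 (mt-Tr), -1.99 (mt-Ts2) and -2.03 (mt-Te), and mt-Nd4l became -1.42 on diet and 0.24 with rosiglitazone. With the adipocyte covariate, KO against WT with rosiglitazone turned to 0.25 (mt-Nd4l), 0.55 (mt-Nd4), 0.66 (mt-Nd5), 0.63 (mt-Cytb), 0.80 (mt-Ta), 0.19 (mt-Tn) and 2.16 (mt-Ty), and mt-Ty and mt-Tp on diet to 2.43 and 2.24.

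Leaving out each library gave 0 to 5 calls and medians of 1.12 to 1.67 (rosiglitazone in WT), 0 calls and -0.63 to 0.79 (rosiglitazone in KO), 0 calls and -0.57 to 0.52 (KO against WT on diet), 0 to 10 calls and -1.54 to -1.12 (KO against WT with rosiglitazone), and 0 to 1 call and -1.95 to -0.66 (interaction). Mean mRNA shares ran from 0.897% to 1.10% (WT on diet), 1.84% to 2.37% (WT with rosiglitazone), 0.718% to 1.79% (KO on diet) and 0.730% to 1.14% (KO with rosiglitazone); nuclear copies raised that of WT on diet to 1.22%. Libraries with the same replicate number correlated at -0.42 to 0.61. Libraries with different numbers were not set beside them, so these values cannot tell whether the numbers pair libraries. RLE, upper-quartile scaling, scaling without mitochondrial, ribosomal RNA and 7SL genes (also without Gm26917 and Gm42418, chosen after seeing the data), and other filters left every count of called mRNA genes the same. Few reads were given to the tRNA genes, 8 of which did not pass the filter on low counts and were not tested.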
